A study of Mus musculus with 4 samples.

Results

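Macrophages and monocytes of mouse tail intervertebral discs were picked out of 4 single-cell RNA libraries by a fixed rule on 10 genes of the myeloid lineage. A cell barcode with at least 250 detected genes was taken when at least 5 of Lyz2, Ctss, Tyrobp, Fcer1g, C1qa, C1qb, C1qc, Pf4, Csf1r and Cd68 held 1 or more UMIs (unique molecular identifiers, each counting 1 captured transcript molecule). The rule found 103 of 3846 cells, of which 95 lay in the injured discs and 8 in the control discs. The cells were thus selected on the measured UMIs of these 10 genes, whose levels are given as a description and were not tested. Transcripts known from macrophages and some known from monocytes were both present, as described further on, and the cells are called macrophage cells here for short.

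Macrophages are phagocytes that clear dead cells and debris, present antigen and release cytokines and growth factors. They arise either from monocytes that enter tissue from blood or from populations seeded before birth, and they shift between an inflammatory and a repair-type state depending on the signals they receive. A healthy disc is a largely avascular fibrocartilage with few leukocytes, and macrophages are known to appear in discs after puncture or herniation. Cells that take up lipid-rich debris are known to switch on Trem2, a lipid-sensing receptor, together with genes of lipid storage and lysosomal breakdown.

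The mice were wildtype C57BL/6 females of 12 weeks. Coccygeal discs CC5/6 to CC9/10 were punctured on both sides with a 30G needle and collected at 7 days, and unpunctured discs CC12/13 to CC16/17 of the same tails served as controls. Tail level and injury cannot be told apart in this design. For each group 30 discs of 6 mice were pooled, made into 1 suspension, snap frozen, thawed and sorted for viable cells with DAPI, a dye that enters dead cells, and the labels do not say whether these numbers hold for each of the 2 rounds. Each group had 2 libraries, 1 per round, and no value or p-value here stands for single animals. P-values of the fits rest on UMI counts and on a spread pooled over genes, so a very small one is no measure of replication.

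Control discs gave 378 cells in round 1 and 856 in round 2, and injured discs gave 778 and 1834. Total UMIs of the 4 matrices ran from 1114210 to 16972879. Cells of control discs were shallow, with medians of 1061.5 and 836 UMIs, against 7033.5 and 4635 in injured discs. In round 1, 235 barcodes held at least 100 UMIs in both the control and the injured library, among them 175 of the 378 control cells and 152 of the 778 injured cells. Results that rest on round 1 are therefore given with and without these shared barcodes where they differ.

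Few of the barcodes counted as cells in control discs met the rule. There were 3 in control round 1, a share of 0.794% (exact 95% interval 0.164% to 2.30%), and 5 in control round 2, a share of 0.584% (0.190% to 1.36%). Injured round 1 held 30, a share of 3.86% (2.62% to 5.46%), and injured round 2 held 65, a share of 3.54% (2.75% to 4.50%). Both injured libraries lay above both control libraries, and the intervals, which cover counting error only, did not overlap between groups within a round. The mean share was 3.70% ± 0.221 in injured discs and 0.689% ± 0.148 in control discs (SD, n = 2 libraries each), a difference of 3.01 percentage points that was 3.06 in round 1 and 2.96 in round 2. An exact two-sided permutation test of 2 libraries against 2 gave p = 0.333, the smallest value this design allows.

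**Figure D1:**
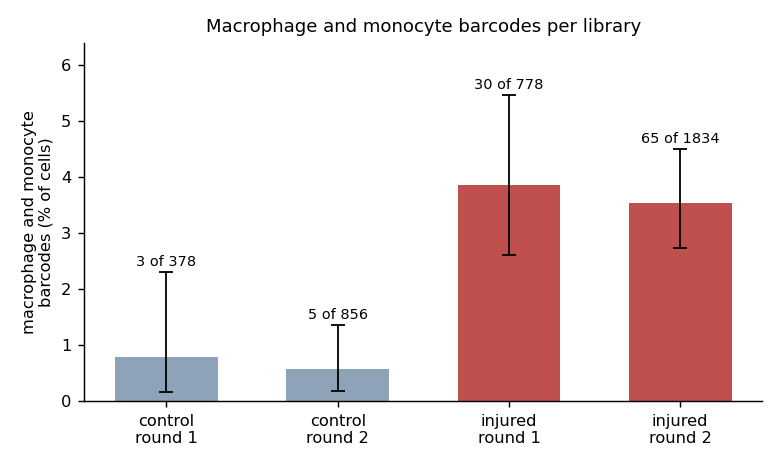
Share of cells in each library that met the rule for macrophage cells, in percent of cells with at least 250 detected genes. Bars are 1 library each, lines are exact 95% binomial intervals, and the numbers are cells of all cells. Both injured libraries stand at 3.86% and 3.54%, above both control libraries at 0.794% and 0.584%.

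The rule needs 5 detected genes and so depends on depth, which was lower in control cells. With every cell thinned to 1000 UMIs and shallower cells left out, the rule found 0 of 196 cells in control round 1 (exact 95% upper bound 1.86%) and 2 of 397 in control round 2. It found 16 of 643 and 41 of 1591 cells in injured rounds 1 and 2, and the difference between groups was 2.28 points. Without the shared barcodes, 0 of 203 control and 28 of 626 injured cells of round 1 met the rule, and the difference was 3.72 points. Just outside the threshold, exactly 4 of the 10 genes were held by 1 and 2 control cells and by 3 and 9 injured cells of rounds 1 and 2. Just inside it, exactly 5 genes were held by 2 and 2 control cells and by 1 and 8 injured cells. Of all cells, 93.8% to 98.0% per library held none or 1 of the 10 genes. Barcodes with 50 to 249 detected genes were not counted as cells, but some of them met the rule. These were 0 of 66 and 9 of 9015 in control rounds 1 and 2, and 4 of 4302 and 6 of 8030 in injured rounds 1 and 2. Control round 2 thus had more such barcodes below the cut than the 5 above it. Whether they were macrophages was not tested.

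Of the 8 control cells, 2 carried the depth and gene content of a macrophage. The first, of control round 2, had 7563 UMIs, all 10 rule genes, 104 UMIs of Lyz2, 26 of Pf4, 6 of Trem2 and 31 of the chemokine Cxcl2, and no UMI of Cd74 or of the class II genes H2-Aa, H2-Ab1 and H2-Eb1. The second, of the same library, had 6555 UMIs, 9 rule genes, 50 UMIs of Lyz2, 9 of Trem2, 37 of Apoe, 66 of Lgals3, 73 of Cd74 and 26 of H2-Aa, and none of Pf4. These cells differed from each other in the class II genes, which display antigen to T cells, and in Pf4, which encodes platelet factor 4.

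The other 6 control cells had 475 to 867 UMIs each. In 5 of them genes of B and plasma cells made up between 105 and 4558 of every 10000 UMIs, with 171 and 289 UMIs of the immunoglobulin gene Igkc in 2 cells of control round 1. The value of 105 belonged to a cell of control round 2 with 475 UMIs, 2 of them of Igkc. That cell held 17 UMIs of 6 rule genes, among them 6 of Lyz2, 4 of C1qa and 4 of C1qb. Its 357.9 rule-gene UMIs per 10000 were more than in any other control cell. The sixth, of control round 1, had 620 UMIs, and the same barcode held 21914 UMIs in injured round 1. All 3 cells of control round 1 had shared barcodes. A comparison of injured with control macrophage cells was therefore not made, and the gene values that follow are from the injured discs.

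The injured cells held 171422 UMIs in round 1 and 280471 in round 2, with medians of 5202 and 3988 UMIs per macrophage cell against 7193 and 4672 per other cell. Levels are UMIs of a gene per 10000 UMIs of the summed cells of a library, given for round 1 and then round 2. In such sums, fewer cells that use a gene and less of its RNA per cell cannot be told apart. The 10 rule genes together reached 140.5 and 157.4 per 10000 in macrophage cells and 0.275 and 0.406 in other cells, beside 23.4 and 10.5 in barcodes of at most 20 UMIs, which stand for free RNA. Lyz2, the lysozyme of phagocytes, stood at 39.0 and 53.7. Pf4 stood at 31.8 and 39.7, and C1qa, a chain of the complement starter C1q, at 6.77 and 3.92.

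C1qa was unevenly spread, with 70.7% of its round 1 UMIs in 3 cells, and it fell to 3.76 in round 1 without the shared barcodes. The shared barcodes comprised 2 macrophage cells of injured round 1, of 692 and 21914 UMIs. Leaving them out also moved the round 1 level by more than 1.5 times for Maf, from 3.44 to 1.81, and for Lyve1, from 3.33 to 1.48, while Igkc fell from 8.98 to 0. Among list genes with at least 15 UMIs no other level moved that far.

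Fits of summed counts compared macrophage cells with the other 2517 cells of the injured discs, with the library as a block (edgeR quasi-likelihood test, Benjamini-Hochberg adjusted p under 0.05 over 11263 genes). The rule itself drew this contrast, so calls in it describe the cells and are no support for the choice. Of the genes tested, 9.14% were called higher (1029) and 12.3% lower (1390), and the median log2 difference of all genes was -0.23, with 4616 genes above 0. The 2 sums of a library come from the same suspension, and for genes named below, calls that a fit without the library block or a DESeq2 fit with it did not make are given with them.

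In this contrast, which the rule drew, 15 macrophage genes that the rule did not use describe the cells and are no independent test of the label. Of these, 14 were called higher and 1 was not called, and their median log2 difference was 7.53. Adgre1, which encodes the F4/80 antigen, had 19 and 25 UMIs in macrophage cells and none in other cells, so it was at least 242-fold and 305-fold higher against a floor of 3 counts. Spi1, the myeloid factor PU.1, stood at 4.38 and 3.96 against 0.00610 and 0.0195. Laptm5, a lysosomal protein of blood cells, stood at 8.93 and 9.56 against 0.0290 and 0.0603. Cx3cr1, the fractalkine receptor, had 2 and 3 UMIs and was not called (adjusted p = 0.0703). Per cell, a median of 7 of the 15 genes was detected in both injured libraries, and 29 of 30 and 63 of 65 cells held at least 3.

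Genes of blood monocytes were mixed. Of 9 tested, 4 were called higher and 2 lower, with a median log2 difference of -0.67. Ccr2, the receptor that draws monocytes out of the marrow, stood at 1.05 and 2.35 against 0.00153 and 0.00486, and 17.2% and 27.6% of macrophage cells held a UMI of it with every cell thinned to 2000 UMIs (23.3% and 35.4% unthinned), against 0 and 0.0744% of other cells (0.134% and 0.170% unthinned). Ly6c2, which marks inflammatory monocytes, had 0 and 2 UMIs in 95 cells, and Plac8 had 0 in both libraries, which allows up to 0.175 and 0.107 per 10000. Chil3 had 4 and 5 UMIs. S100a4, a calcium-binding protein of motile cells, stood at 87.3 and 112 against 33.2 and 49.8, and its call was lost without the library block. Fn1 and Vcan, matrix proteins that monocytes share with disc cells, were the genes called lower.

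Genes of settled tissue macrophages were present, some of them in few cells, and 7 of 30 and 26 of 65 cells held none of the 13 listed. Of 9 tested, 6 were called higher and 3 were not called, with a median log2 difference of 3.83. Lyve1, a hyaluronan receptor, had 57 UMIs in 6 of 30 cells in round 1 and 8 UMIs in 2 of 65 cells in round 2, and 94.7% of the former lay in 3 cells. Folr2, a folate receptor, stood at 1.63 and 0.428 against 0.0427 and 0.0652. Selenop, a selenium carrier, stood at 6.48 and 1.96 against 0.276 and 0.354 and was found in 17 of 30 and 30 of 65 cells. F13a1, a clotting factor chain, stood at 2.80 and 0.713 against 1.03 and 0.482 and was not called (edgeR adjusted p = 0.0622), but it was without the 7 disc-mixed or immunoglobulin-rich cells (0.0492), when 6 rule genes were required (0.0233) and without cells that held cartilage genes (0.0345). Timd4, a phosphatidylserine receptor of long-lived resident cells, had no UMI in either library. Ccr2 and Lyve1 met in 0 of 30 and 1 of 65 cells, while 7 and 22 cells held Ccr2 alone and 6 and 1 held Lyve1 alone.

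Markers of other cell types were scarce, with exceptions that sit in few cells. Summed lists in macrophage cells reached 1.17 and 0.963 per 10000 for 14 neutrophil genes, 1.11 and 0.927 for 12 T and NK cell genes, and 0 in both libraries for mast cell and erythroid genes. Genes of B and plasma cells reached 9.86 in round 1, with its 154 UMIs of Igkc in 1 cell of 692 UMIs, and 0.107 in round 2. Genes of disc fibroblasts reached 1.05 and 26.7, and 6 cells of round 2 with at least 50 disc UMIs per 10000 held most of the latter. For genes named below, calls that these 7 cells change are given where they occur, and 88 cells remain without them.

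Outside the rule, and among genes with at least 20 UMIs in the higher sum of each library, the 20 called genes with the largest differences were, in order of size, Clec4a2, Trem2, Wfdc17, Lilr4b, C5ar1, Itgb2, Cd33, Cd37, Mrc1, Ccl6, Msr1, Lilrb4a, Alox5ap, Spi1, Ncf1, Cd53, C3ar1, Itgam, Clec4e and Cybb, with log2 differences from 7.73 to 9.53. Clec4a2, a C-type lectin at chromosome 6, 123106428 to 123143999 (GRCm38), had 65 and 111 UMIs, and it was at 0 in other cells of round 1. Alox5ap, which hands arachidonic acid to the leukotriene pathway, stood at 8.93 and 10.1 against 0.0168 and 0.0467. Wfdc17, a small secreted protein, stood at 9.04 and 2.14 against 0.00458 and 0.00973, and 81.9% of its round 1 UMIs lay in 3 cells. The complement receptors C5ar1 and C3ar1, which sense the C5a and C3a fragments, stood at 1.69 and 1.46 and at 3.15 and 2.99, against 0.00305 and 0.00292 and 0.0137 and 0.00876. Lilr4b and Lilrb4a are neighbouring, near-identical receptor genes on chromosome 10, so the split of UMIs between them is uncertain. The 5 genes at the other end, all at 0 UMIs in macrophage cells, were Smoc2, Gas1, Has2, Clec3a and Tead1, genes of disc and connective tissue cells. Against a floor of 3 counts Smoc2, a matrix protein, was at least 14.2-fold and 18.6-fold lower and Has2, a hyaluronan synthase, at least 9.77-fold and 7.95-fold lower. DESeq2 called none of these 5 (adjusted p from 0.148 to 0.287).

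The promoters of genes in this set are shown because they moved together and because Spi1, whose product PU.1 binds purine-rich DNA around the letters GAGGAA, was among them. RefSeq promoters (GRCm38.p6, 250 bases before to 50 bases after the start of the gene) matched 15 of the 20 genes, and 9 of the 15, 60.0%, held GAGGAA on either strand, against 28.3% of all 27025 promoters of that length and 5 of 7 matched rule genes. The longer run GAGGAAGT, which contains the shorter one, occurred in 2 of the 15 and in 3.28% of all promoters. Motifs of other factors, searched on both strands, were also more frequent in the 15 than in all promoters. TTNCNNAA, known from C/EBP factors, was in 60.0% against 40.7%, and TGAGTCA, known from AP-1, in 13.3% against 5.17%. Among the 8853 matched promoters of genes tested, the shares were 26.4% for GAGGAA, 3.12% for GAGGAAGT, 30.6% for TTNCNNAA and 3.56% for TGAGTCA. The higher share was thus not particular to GAGGAA. Capitals below mark GAGGAA, read as TTCCTC where it lies on the opposite strand, and the 5 genes were chosen among those with a match after the matches were seen, Trem2 and Mrc1 for lipid sensing and uptake, Itgam for phagocytosis and Cd37 and Cd53 as a pair of leukocyte tetraspanins.
Trem2: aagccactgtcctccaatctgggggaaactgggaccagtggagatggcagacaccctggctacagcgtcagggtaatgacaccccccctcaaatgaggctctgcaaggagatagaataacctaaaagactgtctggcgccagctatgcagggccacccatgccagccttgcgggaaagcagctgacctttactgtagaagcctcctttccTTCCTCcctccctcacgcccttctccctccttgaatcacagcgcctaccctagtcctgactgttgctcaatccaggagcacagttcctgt
Mrc1: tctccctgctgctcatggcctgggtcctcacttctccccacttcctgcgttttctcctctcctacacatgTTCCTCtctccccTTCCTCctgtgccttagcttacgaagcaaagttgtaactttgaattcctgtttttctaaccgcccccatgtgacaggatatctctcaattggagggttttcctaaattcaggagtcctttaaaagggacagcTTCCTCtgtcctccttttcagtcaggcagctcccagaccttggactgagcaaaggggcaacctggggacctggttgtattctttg
Itgam: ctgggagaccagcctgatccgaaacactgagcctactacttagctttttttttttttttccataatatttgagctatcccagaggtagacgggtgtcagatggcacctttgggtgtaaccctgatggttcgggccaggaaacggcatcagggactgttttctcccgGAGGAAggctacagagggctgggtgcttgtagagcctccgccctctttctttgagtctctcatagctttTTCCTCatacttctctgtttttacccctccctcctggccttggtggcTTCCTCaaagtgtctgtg
Cd37: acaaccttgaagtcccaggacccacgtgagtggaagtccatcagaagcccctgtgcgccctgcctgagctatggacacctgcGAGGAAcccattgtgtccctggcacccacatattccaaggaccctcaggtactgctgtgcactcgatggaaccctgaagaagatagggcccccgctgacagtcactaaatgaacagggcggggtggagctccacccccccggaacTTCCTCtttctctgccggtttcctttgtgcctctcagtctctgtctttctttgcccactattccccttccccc
Cd53: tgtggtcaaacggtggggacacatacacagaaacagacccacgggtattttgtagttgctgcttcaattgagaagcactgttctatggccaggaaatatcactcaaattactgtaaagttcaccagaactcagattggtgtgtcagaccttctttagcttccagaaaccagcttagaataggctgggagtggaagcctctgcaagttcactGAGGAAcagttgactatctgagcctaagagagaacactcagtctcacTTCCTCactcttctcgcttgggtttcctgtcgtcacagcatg
In Trem2 (chr17:48346151-48346450, plus strand) the match began 40 bases before the start. In Mrc1 (chr2:14229164-14229463, plus strand) there were 3, beginning 180, 167 and 35 bases before it. Itgam (chr7:128062390-128062689, plus strand) held 3, at 84 and 15 bases before the start and at base 33 after it, Cd37 (chr7:45238790-45239089, minus strand) 2, at 168 and 23 bases before it, and Cd53 (chr3:106790100-106790399, minus strand) 2, at 39 bases before it and base 9 after it. A match describes the letters only and says nothing of binding.

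Genes of the lipid-associated state were mostly higher in macrophage cells, but the matrix glycoprotein Spp1, often listed with them, was far lower. Of 17 tested, 11 were called higher and 2 lower, with a median log2 difference of 1.74. Trem2 had 86 UMIs in round 1 and 158 in round 2, levels of 5.02 and 5.63 against 0.00458 and 0.0136 in other cells. It was detected in 83.3% and 80.0% of macrophage cells and in 0.401% and 0.509% of other cells, and in 62.1% and 63.8% against 0.182% and 0.223% with every cell thinned to 2000 UMIs. The log2 difference was 8.94 (SE 0.45, edgeR adjusted p = 2.44e-84). The 2 injured libraries gave nearly the same Trem2 level, and both deep control cells held it too.

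Fatty acid uptake and storage genes followed. Cd36, the scavenger receptor for fatty acids and oxidised lipoprotein, stood at 10.2 and 4.92 against 0.0320 and 0.0272, and 89.3% and 83.1% of all its UMIs in the injured libraries lay in macrophage cells, which held 2.55% and 2.66% of all UMIs. Plin2, which coats lipid droplets, stood at 3.68 and 1.46 against 0.140 and 0.162. Lpl, which releases fatty acids from lipoproteins, stood at 1.81 and 0.606 against 0.0763 and 0.0379. All 3 were called higher, with log2 differences of 7.69, 3.75 and 4.10 (SE 0.41, 0.36 and 0.47), and each was lower in round 2 than in round 1. Trem2 and Cd36 met in 20 of 30 and 29 of 65 cells, 5 and 23 cells held Trem2 alone, and 1 and 3 held Cd36 alone.

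Apoe, the lipoprotein that carries cholesterol out of cells, stood at 12.1 and 7.45 against 0.961 and 0.640, a log2 difference of 3.40 (SE 0.33). With cells thinned to 2000 UMIs it was detected in 31.0% and 43.1% of macrophage cells against 8.55% and 6.92% of other cells (46.7% and 49.2% against 23.0% and 13.2% unthinned), and 77.3% of its round 1 UMIs lay in 3 cells. Lgals3, which encodes galectin-3, was abundant in both populations, at 58.6 and 57.0 against 24.4 and 30.7 (log2 difference 0.89, SE 0.29, edgeR adjusted p = 0.0138). Fabp5, a fatty acid chaperone, was 1.01 higher on the log2 scale, a call that was lost without the 7 disc-mixed or immunoglobulin-rich cells (adjusted p = 0.0534). Cathepsins Ctsb and Ctsd were called higher, whereas Cd9, Cd63, Ctsl and Gpnmb were not called. Gpnmb, a glycoprotein of lipid-laden macrophages, had 1 and 2 UMIs. The calls of Lgals3, Lgals1, Ctsd and Fabp5 were lost without the library block, those of Lgals1, Fabp5 and Fabp4 with DESeq2, and those of Lgals3 and Fabp5 with no filter on low counts.

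Spp1, which encodes osteopontin, stood at 4.20 and 6.45 in macrophage cells against 109 and 95.8 in other cells, a log2 difference of -4.47 (SE 0.33). Macrophage cells held 0.101% and 0.183% of its UMIs, and of the 181 UMIs of round 2, 81 lay outside the 6 disc-mixed cells. Fabp4, another lipid chaperone, had no UMI in macrophage cells and 1.02 and 0.309 in other cells, at least 5.83-fold and 2.89-fold more. The list thus split, with uptake and storage genes higher and Spp1 and Fabp4 lower in macrophage cells.

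Genes of cholesterol handling were divided as well. Of 24 tested, 11 were called higher and 4 lower, with a median log2 difference of 0.73. The efflux pumps Abca1 and Abcg1 stood at 1.81 and 0.642 and at 1.63 and 0.963, against 0.0869 and 0.122 and 0.0229 and 0.0175 in other cells. Pltp, which moves phospholipid onto lipoproteins, stood at 4.55 and 3.21 against 0.0625 and 0.0691. The lysosomal cholesterol exporters Npc1 and Npc2, the acid lipase Lipa, and the cholesterol esterase Nceh1 and the esterifying enzyme Soat1 were also called higher. Among those called lower were the lipoprotein receptor Vldlr and the sterol-responsive transcription factor Srebf2. Calls of Npc1, Npc2, Pnpla2, Soat1, Srebf2 and Vldlr were lost without the library block and those of Soat1 and Vldlr with DESeq2. That of Vldlr, on 1 and 0 UMIs, was also lost without the 7 disc-mixed or immunoglobulin-rich cells (adjusted p = 0.0678). Pparg, a lipid-sensing nuclear receptor, had no UMI, and its relative Nr1h3 had 0 and 1.

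**Figure D2:**
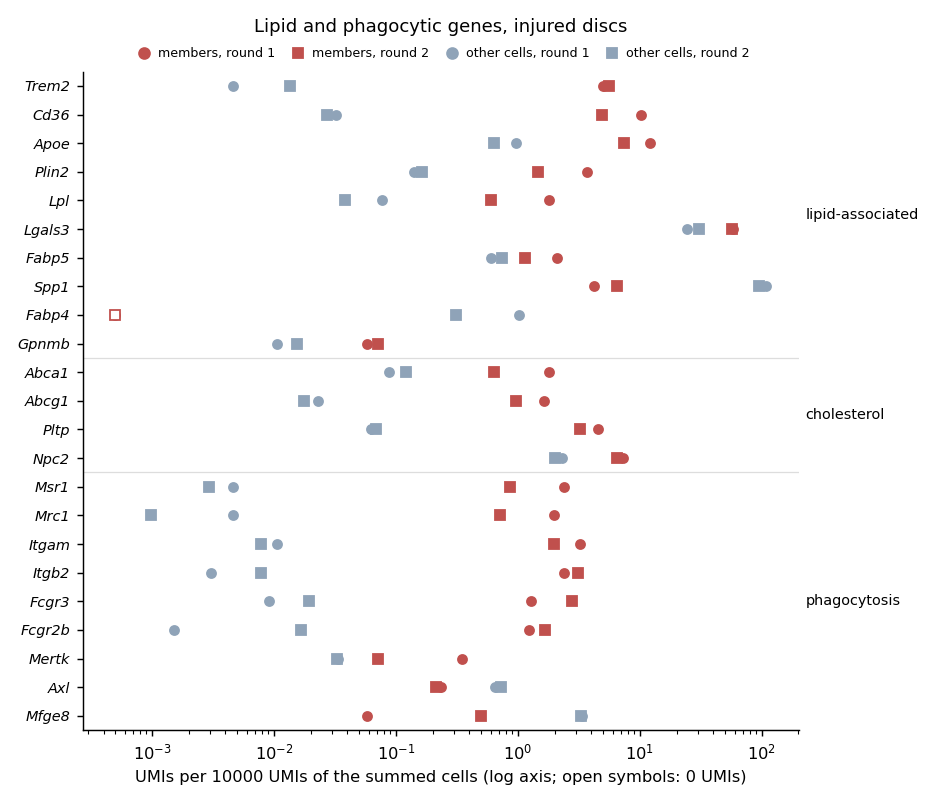
Levels of lipid, cholesterol and phagocytic genes in macrophage cells (members, red) and all other cells (blue) of the 2 injured libraries, in UMIs per 10000 on a log axis; circles are round 1, squares round 2, and an open symbol at the left edge is 0 UMIs. Trem2 lies at 5.02 and 5.63 in macrophage cells against 0.00458 and 0.0136 in other cells, Cd36, Msr1 and Mrc1 lie to the right likewise, and Spp1, Fabp4 and Mfge8 lie to the left.

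Several receptors for complement, antibody and scavenged particles were higher in macrophage cells. Of 21 phagocytic receptor and bridging genes tested, 11 were called higher and 4 lower, with a median log2 difference of 2.40. Those called lower were Axl, Mfge8, the integrin chain Itgb5 and the scavenger receptor Colec12, which stood at 0.350 and 0.0357 against 0.470 and 0.606. The calls of Itgb5, Colec12 and Cd93 were lost without the library block, and that of Colec12 with DESeq2. Itgam and Itgb2, the chains of complement receptor 3, stood at 3.21 and 1.96 and at 2.39 and 3.10, against 0.0107 and 0.00778 and 0.00305 and 0.00778. The Fc receptors Fcgr3 and Fcgr2b, which bind antibody-coated targets, stood at 1.28 and 2.78 and at 1.23 and 1.68, against 0.00915 and 0.0195 and 0.00153 and 0.0165. The scavenger receptor Msr1 stood at 2.39 and 0.856 against 0.00458 and 0.00292, and the mannose receptor Mrc1 at 1.98 and 0.713 against 0.00458 and 0.000973. Mrc1 was found in 8 of 30 and 12 of 65 cells, and 79.4% of its round 1 UMIs lay in 3 of them.

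Mertk, a receptor for dying cells, had 6 and 2 UMIs (log2 difference 2.23, SE 0.90, edgeR adjusted p = 0.0611) and was called higher without the shared barcodes (log2 difference 2.44, adjusted p = 0.0338). Tyro3, Timd4 and the scavenger receptor Marco had none, which allows up to 0.175 and 0.107 per 10000. Axl, a relative of Mertk, was called lower, at 0.233 and 0.214 against 0.648 and 0.732, and so was the bridging protein Mfge8, at 0.0583 and 0.499 against 3.39 and 3.32. Gas6, the ligand of Axl and Mertk, stood at 1.17 and 0.0713 against 0.162 and 0.484 and was not called. Macrophage cells held 0.932% and 0.792% of the UMIs of Axl and 0.0450% and 0.409% of those of Mfge8. Lrp1, a large receptor for many ligands, stood at 4.08 and 5.06 against 2.40 and 3.43 and was not called.

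Genes of the phagosome and the lysosome were higher or not called. Of 19 phagosome genes, 12 were called higher and 7 not called (median log2 difference 3.36), and of 29 lysosome genes, 19 were called higher and 10 not called (median 1.59). The oxidase chains Cyba and Cybb, which make superoxide in phagosomes, stood at 17.6 and 22.9 against 1.27 and 2.30 and at 1.28 and 2.17 against 0.00763 and 0.00681. The cytosolic subunits Ncf1 and Ncf4 were called higher as well. Coro1a, an actin-binding protein of leukocytes, stood at 3.27 and 5.74 against 0.0320 and 0.0321. Among the proteases, Lgmn stood at 7.53 and 5.67 against 0.953 and 1.17 and Ctsc at 3.33 and 2.32 against 0.0275 and 0.0632. The membrane proteins Lamp1 and Lamp2, present in every cell type, were not called.

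Inflammatory genes did not fall into 1 pattern. Of 14 tested, 8 were called higher and 3 lower, with a median log2 difference of 3.42. Tnf had 18 UMIs in round 1 and 148 in round 2, levels of 1.05 and 5.28 against 0.0747 and 0.0593 in other cells (log2 difference 5.20, SE 0.41), and 13.8% and 50% of macrophage cells held it when thinned to 2000 UMIs, against 0.727% and 1.04% of other cells (26.7% and 66.2% against 2.94% and 2.15% unthinned). Il1b, the interleukin-1 beta gene, had 82 and 37 UMIs, but all 82 of round 1 lay in 3 of 30 cells, whereas in round 2 it was found in 14 of 65. Nlrp3, the inflammasome sensor that leads to its release, stood at 1.46 and 1.93 against 0.00610 and 0.0165. Clec4e, a receptor for dead cells and mycobacterial lipid, stood at 3.21 and 2.10 against 0.0122 and 0.00876.

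Other inflammatory genes went either way. Nos2, the inducible nitric oxide synthase, had 1 UMI in round 1 and 0 in round 2, whereas other cells stood at 2.49 and 0.581. Its log2 difference was -6.12 (SE 0.76, edgeR adjusted p = 4.12e-14). Il6 had no UMI in macrophage cells and 0.201 and 0.106 per 10000 in other cells, where the level in round 2 was below the 0.107 that 3 counts in macrophage cells would give. Ptgs2, the cyclooxygenase of prostaglandin synthesis, had 19 UMIs in 3 cells of round 1 and none in round 2. Its call was lost without the shared barcodes, without the 7 disc-mixed or immunoglobulin-rich cells, without the library block and with DESeq2, and that of Il6 with DESeq2 and when 4 rule genes sufficed. Cxcl10, an interferon-induced chemokine, was called higher on 1 and 42 UMIs, 36 of them in 3 cells of round 2. Its call was lost without the library block (adjusted p = 0.0980) and with DESeq2 (adjusted p = 0.627), and round 1 alone gave a log2 difference of -1.60. Cd86 and Cd40, partners of T cells, were called higher on 4 and 7 and on 2 and 12 UMIs.

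Genes of the repair-type state were likewise divided. Of 14 tested, 9 were called higher and 2 lower, with a median log2 difference of 2.79. Tgfbi, an adhesion protein induced by TGF-beta, stood at 13.2 and 15.1 against 2.70 and 6.37 and was found in 93.1% of macrophage cells of either library at 2000 UMIs, against 31.5% and 52.0% of other cells. Il1rn, the antagonist of interleukin-1, had 29 and 6 UMIs, Cd163, the haemoglobin scavenger, 21 and 5, and Stab1, a clearance receptor, 19 and 12. Arg1, the arginase that competes with Nos2, had 4 and 14 UMIs, of which 12 of the 14 lay in disc-mixed cells. Without the 7 disc-mixed or immunoglobulin-rich cells its call was lost (adjusted p = 0.0893), as was that of Il4ra (0.0648). Klf4, a transcription factor, and Vegfa, a vessel growth factor, were called lower. The calls of Tgfbi, Klf4, Vegfa and the interleukin-4 receptor chain Il4ra were lost without the library block, those of Vegfa, Il4ra and Ccl24 with DESeq2, and that of Il4ra with no filter on low counts. Without the 7 disc-mixed or immunoglobulin-rich cells 6 genes of the list were called higher and Ccl17 was not tested.

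Cxcl9 and Il12b of the inflammatory list and Retnla, Pdcd1lg2 and Ccl22 of the repair list had no UMI in macrophage cells. Transcripts of both lists met in single cells. Tnf and Mrc1 were found together in 5 of 30 and 8 of 65 cells, beside 3 and 35 with Tnf alone and 3 and 4 with Mrc1 alone. Il1b and Mrc1 were found together in 0 and 5 cells. A missing UMI in cells of this depth is not the absence of a transcript.

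**Figure D3:**
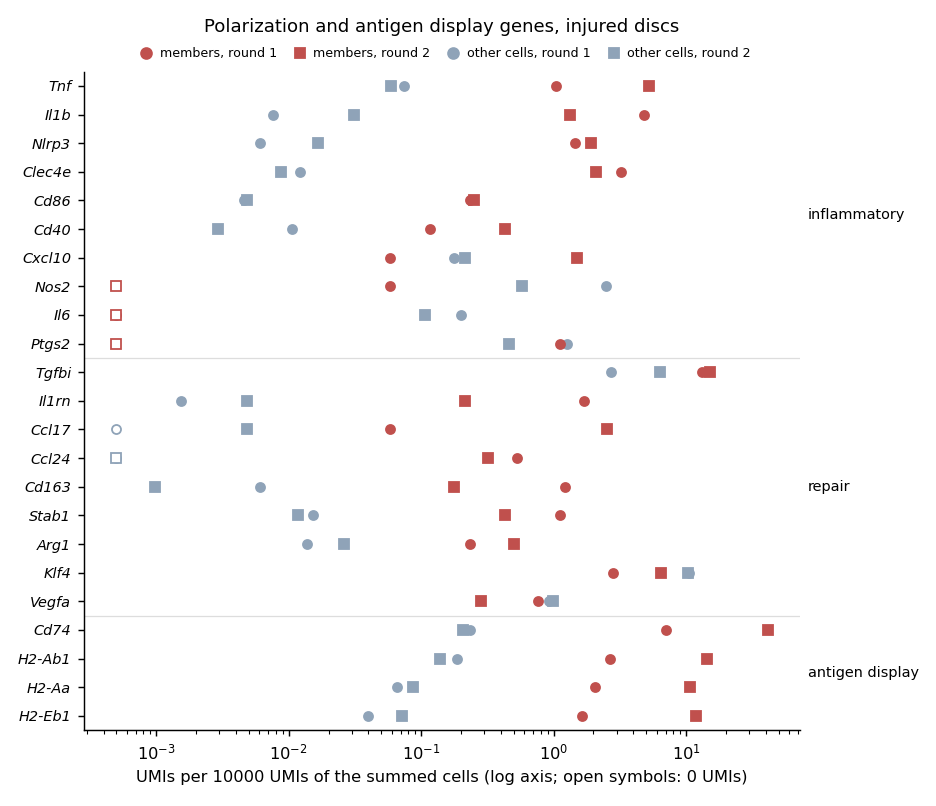
Levels of inflammatory, repair-type and antigen display genes in macrophage cells (members, red) and other cells (blue) of the injured libraries, in UMIs per 10000 on a log axis; circles are round 1, squares round 2, and open symbols are 0 UMIs. Tnf, Il1b, Nlrp3 and Cd163 lie to the right in macrophage cells and Nos2 and Il6 to the left.

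Antigen display genes were higher in macrophage cells, and the class II genes differed most between the libraries. Of 11 tested, 10 were called higher and 1 was not called, with a median log2 difference of 4.70. Cd74, the chaperone of class II molecules, had 121 and 1162 UMIs, levels of 7.06 and 41.4 against 0.233 and 0.207. H2-Ab1 stood at 2.68 and 14.3 against 0.188 and 0.139. Cd74 was found in 13.8% and 39.7% of macrophage cells at 2000 UMIs (26.7% and 44.6% unthinned) against 0 and 0.521% of other cells, and 90.1% of its UMIs in round 1 lay in 3 cells. Class I genes H2-K1, H2-D1 and B2m were 2.10 to 2.33 higher on the log2 scale.

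Chemokine genes were shared between macrophage cells and disc cells. Of 16 tested, 9 were called higher and 3 lower. Cxcl2, which attracts neutrophils, stood at 37.7 and 33.2 against 62.6 and 17.9, with 88.4% of the round 1 UMIs in 3 cells. Its log2 difference of -0.11 (SE 0.30) was within its error, and it was 0.17 without the shared barcodes and 0.89 in round 2 alone. Cxcl1 was called lower, at 8.98 and 1.50 against 33.3 and 5.57. Ccl2, which attracts monocytes, stood at 7.64 and 17.1 against 9.26 and 3.56 (log2 difference 0.83, SE 0.34, edgeR adjusted p = 0.0621). Round 1 alone gave -0.28 for Ccl2. It was called higher without the shared barcodes (log2 difference 1.19, adjusted p = 0.000718), when 6 rule genes were required (adjusted p = 0.00870) and without cells that held cartilage genes (adjusted p = 0.0169). Ccl6, Ccl9, Ccl3 and Cxcl16 were called higher, and macrophage cells held 97.5% and 87.5% of the UMIs of Ccl6 and 87.9% and 57.6% of those of Ccl9. Ccl7, another attractant of monocytes, was called higher at 6.48 and 4.67 against 6.05 and 1.22 (edgeR adjusted p = 0.0491). The call of Cxcl1 was lost without the library block, and that of Ccl7 without the block (adjusted p = 0.755), with DESeq2 (0.357), without the 7 disc-mixed or immunoglobulin-rich cells (0.103), with no filter on low counts (0.170), when 4 rule genes sufficed (0.0579) and against cells with none or 1 of the rule genes (0.0541).

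Receptors for these signals were mostly higher. Of 17 cytokine and chemokine receptor genes tested, 12 were called higher and 1 lower, among them Ccr1, Cxcr4, Il10ra, Ifngr1 and Tnfrsf1b. Cxcr4 stood at 4.38 and 2.96 against 0.110 and 0.0321, and Il10ra, the receptor of interleukin-10, at 0.758 and 1.35 against 0.00153 and 0.00292. Genes on a list of growth factors and other cytokines that act on macrophages were mostly lower. Csf1, the ligand of Csf1r, had 1 UMI in each library of macrophage cells and stood at 0.238 and 0.232 in other cells. Csf2 and the cytokine Mif were called lower too, so 4 of 5 tested genes of this list were lower and 1 was not called. Calls of Csf1 and Mif were lost without the library block, and those of Csf1 and Csf2 with DESeq2.

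Of the growth and repair factors, 6 of 19 tested were called higher and 8 lower. Grn, which encodes progranulin, stood at 8.81 and 5.85 against 0.943 and 1.29. Osm, oncostatin M, had 7 and 18 UMIs and levels of 0.408 and 0.642 against 0.00305 and 0.00584. Pdgfb stood at 0.758 and 0.820 against 0.171 and 0.0117. Bmp2, by contrast, stood at 0.117 and 0.178 against 25.1 and 4.90. Of 16 matrix proteases and their inhibitors, 3 were called higher and 6 lower. Mmp3, stromelysin, had 6 and 2 UMIs against levels of 50.4 and 10.3 in other cells, and the inhibitor Timp3 had 1 and 42 UMIs, of which 41 of the 42 lay in disc-mixed cells.

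Of 14 iron and haem genes, 7 were called higher and 7 not called, and 2 were called without the library block. Hmox1, which breaks down haem, stood at 15.3 and 2.32 against 3.16 and 1.72, a call that was lost without the block and with DESeq2. Of 18 genes of dividing cells edgeR and DESeq2 called 0 in either direction, and 5 had an unadjusted p under 0.05 in edgeR. Without the 7 disc-mixed or immunoglobulin-rich cells 3 of the 18, Birc5, Cenpf and Rrm2, were called lower, and the median log2 difference moved from -0.08 to -1.88. Mki67 had 6 and 16 UMIs, and the 14 UMIs of Top2a in round 2 all lay in 1 disc-mixed cell. Osteoclast genes, which mark a related lineage that resorbs bone, summed to 2.16 and 2.53 per 10000 in macrophage cells and 2.14 and 2.95 in other cells. Of 5 tested, Acp5 (0.292 and 0.321 against 0.00153 and 0.0117, adjusted p = 2.38e-07) and Tnfrsf11a were called higher and Nfatc1 lower. Of 11 complement genes, the receptors C3ar1, C5ar1, Itgam and Itgb2 and the stabilising factor Cfp were called higher and C3, C4b and Cd55 lower. The calls of C4b and Cd55 were lost without the library block and with DESeq2, and that of C4b without the 7 disc-mixed or immunoglobulin-rich cells. C3, the central component, had 0 and 1 UMIs in macrophage cells against 0.865 and 1.01 per 10000 in other cells.

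The macrophage cells of the 2 injured libraries were close in Trem2, Lgals3, Laptm5 and Spi1 and far apart in class II and resident genes. With 1 library per round there was no test. Of 84 list genes with at least 20 UMIs, 16 differed by more than 4-fold, 8 in each direction. Higher in round 1 were Lyve1, Cd163, Maf, Gas6, Il1rn, Hmox1, Cxcl1 and Cxcl3, and higher in round 2 were Tnf, Cxcl10, Ccl17, Cd74, H2-Aa, H2-Ab1, H2-Eb1 and H2-DMb1. Without the shared barcodes Maf stood at 1.81 against 0.749 and no longer differed by 4-fold, whereas Il1b then did, at 5.51 against 1.32. In round 1, 3 cells held 94.7% of the UMIs of Lyve1 and 94.8% of those of Cxcl1, and 2 cells held all 88 UMIs of Cxcl3. In round 2, 3 cells held 87.3% of the UMIs of Ccl17. Median depth per macrophage cell was 5202 and 3988 UMIs, and its part in these differences was not tested.

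**Figure D4:**
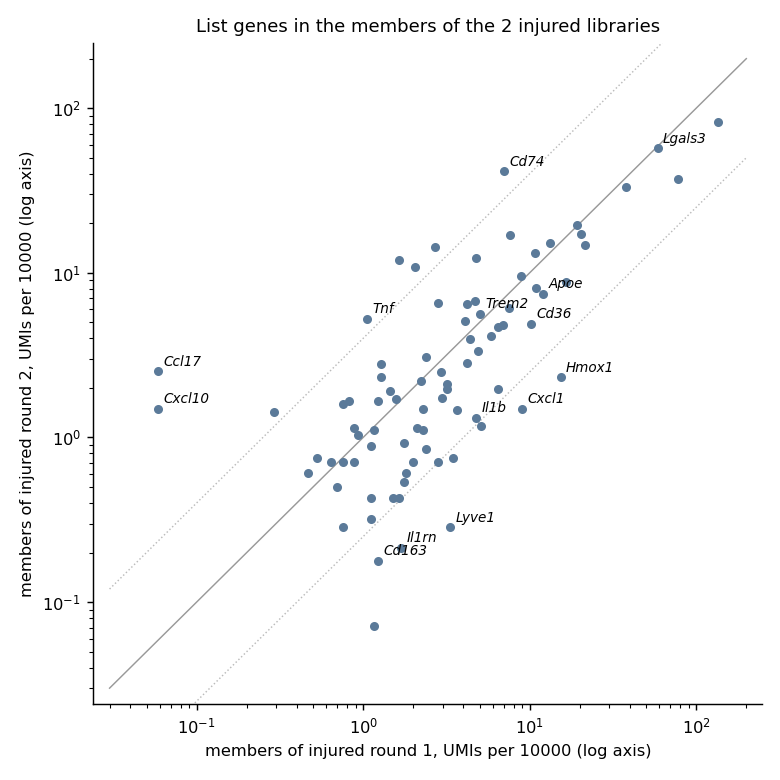
Levels of 84 genes of the macrophage lists in macrophage cells of injured round 1 (horizontal) and injured round 2 (vertical), in UMIs per 10000 on log axes. Each point is 1 gene with at least 20 UMIs, the full line is equality and the dotted lines are 4-fold differences; 8 genes lie beyond them on each side, among them Cd74 and Tnf above and Lyve1 and Hmox1 below.

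Clustering of the 95 injured cells on 1000 variable genes gave 6 groups, which are described by number because the genes that formed them cannot test them. Cluster 1 had 30 cells (6 of round 1 and 24 of round 2) led by Dhrs3, Ifitm3 and Trem2, with Trem2 at 9.50 per 10000 and in 29 of the 30. Cluster 2 had 18 cells (2 and 16, 1 of them immunoglobulin-rich) led by H2-Ab1, Cd74, H2-Eb1, H2-Aa and Ccr2, with Cd74 at 70.7 and Ccr2 at 4.40. Cluster 3 had 18 cells (9 and 9) led by Wfdc17, F13a1, Selenop, Cd36, Ms4a7, Maf, C1qa and Folr2. It held the highest levels of Cd36 (18.4), Lyve1 (6.12), Mrc1 (3.41) and Cd163 (2.21) of the 6 clusters, and Cd74 stood at 0.100.

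Cluster 4 had 18 cells (9 and 9) led by Cxcl1, Cxcl3, Nlrp3, Cxcl2, Il1rn, Csf2rb and Clec4e. It held Cxcl2 at 108, Il1b at 8.81, Ccl17 at 6.56 and Tnf at 6.56, together with Il1rn at 2.94, so the interleukin-1 gene and its antagonist were highest in the same cluster. Cd74 stood at 65.1 there, close to its level in cluster 2. Cluster 5 was the 6 disc-mixed cells of round 2, led by Sparc, Col2a1, Col1a2 and Dcn, and its Spp1 level of 25.7 was the highest of the 6 clusters. Cluster 6 had 5 cells (4 and 1) led by Kdm5a and the heat shock genes Hspa1b and Hspa1a. At the lower resolution of 0.6 there were 5 clusters, and the cells of clusters 3 and 6 were joined.

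**Figure D5:**
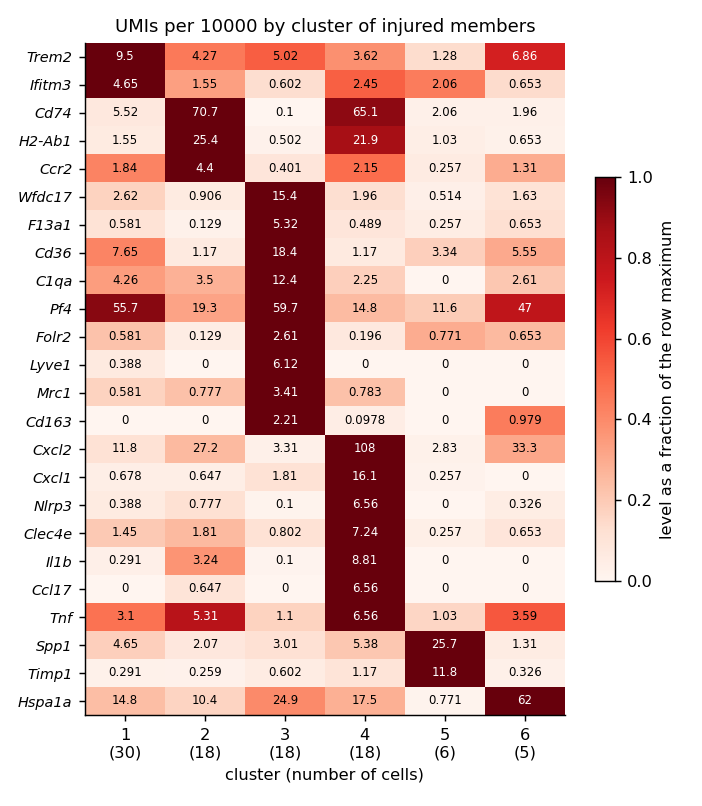
Levels of chosen genes in the 6 clusters of 95 injured macrophage cells; the number in each box is UMIs per 10000 and the shade is the level as a fraction of the highest in that row. Trem2 is highest in cluster 1, class II genes and Ccr2 in cluster 2, Cd36, Lyve1 and Mrc1 in cluster 3, and Cxcl2, Nlrp3 and Il1b in cluster 4; cluster 5 carries disc genes.

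Over all cells of a library, without choosing any, the groups were compared by edgeR on summed counts of the 4 libraries. Of 11990 genes, 0 were called higher (0%) and 14 lower (0.117%), with 948 genes at an unadjusted p under 0.05, and DESeq2 called 42 higher and 139 lower. With the round as a block, 327 genes were called higher (2.73%) and 409 lower (3.41%), 6.14% in all. Other gene groups moved with the libraries, and their part in the values below was not tested. Genes of B and plasma cells had 0 of 6 tested above 0, with a median log2 difference of -4.34, and genes of the nucleus pulposus, the core of the disc, had 1 of 6 above 0, with a median of -4.62. Immediate early genes, which respond within minutes to stimuli and cell handling, had 1 of 16 above 0, with a median of -1.02, and disc fibroblast genes had 11 of 14 above 0, with a median of 1.12. With the block all 6 B and plasma cell genes, 5 of the 6 nucleus pulposus genes and 10 of the 16 immediate early genes were called lower.

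Trem2 stood at 0.00940 and 0.0740 per 10000 in control rounds 1 and 2 and at 0.132 and 0.163 in injured rounds 1 and 2, so both injured libraries were higher. Its log2 difference was 1.72 (SE 0.68, edgeR adjusted p = 0.580) and 1.78 with the round block (SE 0.47, adjusted p = 0.0402). Without control round 1 the difference was 1.11 (adjusted p = 0.926) and without control round 2 it was 4.004 (0.0573). Clec4e stood at 0 and 0.00925 against 0.0937 and 0.0644, on 2 control UMIs, and Msr1 was at 0 in both control libraries and had 44 and 27 UMIs in injured discs. Both were called higher with the block (adjusted p = 0.0171 and 0.0296) and not without it (0.260 and 0.352), except with no filter on low counts (0.0328 and 0.0402), and without the shared barcodes Msr1 did not pass the filter on low counts and was not tested. Fabp5 was called higher with the block as well (log2 difference 1.63, adjusted p = 0.00768), and without the block only with no filter on low counts (0.0357, against 0.335 with it). Of 11 tested macrophage genes outside the rule, 7 were above 0 in this comparison, with a median log2 difference of 0.71, beside -0.01 for all genes.

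Of the 12 inflammatory genes tested, Clec4e and Nos2 were called higher and Il6 lower with the block. Nos2, whose UMIs in injured discs lay almost wholly in other cells, stood at 0.470 and 0.278 in control against 2.43 and 0.565 in injured libraries (adjusted p = 0.00436 with the block and 0.489 without it). Without the block it was called with no filter on low counts (0.00955), without control round 1 (0.0195) and without injured round 2 (6.38e-05), while without injured round 1 its log2 difference was 0.73 instead of 2.05. Il6 stood 1.34 lower on the log2 scale with the block (adjusted p = 0.0100) and was not called without it (0.558), and without control round 1 its difference was -0.65. Of 11 repair genes, Retnla, on 5 and 11 UMIs in control against 0 and 3, and Myc were called lower with the block (adjusted p = 0.0129 and 0.000865) and not without it (0.239 and 0.285), except by DESeq2 (0.0487 and 0.0274), with no filter on low counts (0.0429 and 0.0394) and, for Myc, without control round 1 (0.0391) or injured round 2 (0.0111). Irf8, a transcription factor of macrophages and B cells, was called lower with the block only (0.0368, and 0.387 without it). Without the shared barcodes Irf8 was not called with the block (0.119) and Retnla was not tested. Folr2 belongs to the list of settled tissue macrophages and was picked out here with its values known. It was called higher with the block only (log2 difference 2.13, adjusted p = 0.0477, and 0.394 without it).

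Apoe and Lpl went the other way. Apoe stood at 6.22 and 9.87 in control against 1.24 and 0.821 in injured libraries, a log2 difference of -2.90 (SE 0.33 with the round block, adjusted p = 0.000160, and 0.0696 without it). Lpl stood at 0.479 and 1.73 against 0.120 and 0.0530 and fell by 3.54 with the block (adjusted p = 0.00101), against an adjusted p of 0.130 without it. Without the block, both were called by DESeq2 (adjusted p = 3.58e-08 for Apoe and 1.99e-06 for Lpl), with no filter on low counts (7.03e-05 and 8.37e-06) and with any 1 library left out (at most 0.00376 and 0.00697, with log2 differences of Lpl from -4.26 to -2.43), but not without the shared barcodes (0.147 and 0.530), with DESeq2's size factors in edgeR (0.0676 and 0.130) or with a minimum of 500 detected genes (0.0884 and 0.671, where the log2 difference of Lpl was -1.09). Both were higher in macrophage cells than in other injured cells, and the control macrophage cells held 4 of 662 and 43 of 2134 control UMIs of Apoe and none of Lpl. Colec12, a scavenger receptor, went the same way, at 1.57 and 2.63 in control against 0.467 and 0.591 in injured libraries (adjusted p = 0.000509 with the block and 0.187 without it). Without the block it was called by DESeq2 (0.00386), with no filter on low counts (0.0136) and without control round 1 (0.0104) or injured round 2 (0.0218).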

How the data were processed

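Droplet single-cell RNA libraries of control and injured mouse tail discs were used, 2 per group, 1 per round. The deposited values are whole UMI counts per gene and barcode, which the authors left unnormalized. Per the file headers, Cell Ranger 6.0.0 produced control round 1 and Cell Ranger 4 the other libraries, on mm10 per the submitters' processing notes. The tables list 32285 genes, and 0 columns belong to samples of no group.

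Barcodes counted as cells from 250 detected genes up. The members and the gene lists were chosen with earlier results of these data known. UMIs were summed over macrophage cells and over the other cells of each injured library, and over all cells of each library, and were fitted with edgeR 4.0.16 (R 4.3.3; filterByExpr, TMM, glmQLFit and glmQLFTest) with Benjamini-Hochberg adjusted p under 0.05. The first fit used the library as a block, and the second was run without and with the round as a block. Each SE given with an edgeR fit is the size of the log2 difference divided by the square root of its F statistic. Titles give the round number, the series text states that control and injured discs came from the same animals, and deviations of libraries of 1 round from their group means correlated over 11990 genes (r = 0.528), which rests on only 2 pairs. DESeq2 1.42.0 was an alternative. The fits were tested on simulated data.

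Named genes were the 20 with the largest and the 5 with the smallest log2 difference among genes with adjusted p under 0.05 that went the same way in both libraries and held at least 20 UMIs in the higher sum of each, without the rule genes. Genes of the lists could be named as well, in the comparison of injured with control discs only those of the identity, lipid-associated, phagocytic receptor, inflammatory and repair lists. Shares of cells with a UMI were thinned to 2000 UMIs per cell, which kept 29 of 30 and 58 of 65 macrophage cells and 550 of 748 and 1344 of 1769 other cells. Exact 95% intervals and the floor of 3 counts cover counting error only.

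Clustering used scanpy 1.11.5 (Python 3.11.15) with 1000 variable genes, 10 principal components, 10 neighbours, Leiden resolution 1 and a fixed seed, without mitochondrial and ribosomal protein genes. Leading genes held a UMI in at least 40% of the cluster's cells and were ranked by their ratio to the other clusters with a pseudocount of 0.5 per 10000. No doublet caller was run. Instead, cells with at least 50 disc UMIs or 100 B and plasma cell UMIs per 10000, or with at least 8 of 14 cartilage genes, were left out in alternatives. Further alternatives changed the rule, the filters, the normalization, the block, the reference cells and the libraries used. Promoters came from RefSeq (GRCm38.p6) and gene positions from GRCm38 annotation.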

Additional observations from a re-analysis of the deposited data

Results flagged for a closer look

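Barcodes below the minimum of 250 detected genes entered no share and no fit, and among them injured round 1 held many with neutrophil transcripts. Of its 4302 barcodes with 50 to 249 detected genes, 462 (10.7%, exact 95% interval 9.83% to 11.7%) held UMIs of at least 4 of 14 neutrophil genes. The same count was 43 of 9015 (0.477%) in control round 2, 17 of 8030 (0.212%) in injured round 2 and 0 of 66 in control round 1. The 462 barcodes had a median of 157.5 UMIs, and S100a8 and S100a9, the calprotectin chains of neutrophils, made up 2473 and 1180 of every 10000 of their UMIs. Among cells with at least 250 genes, 1 and 0 cells of the control discs and 5 and 2 cells of the injured discs, in rounds 1 and 2, met the same neutrophil threshold. None of the 462 barcodes held 5 of the 10 rule genes. In the macrophage cells of injured round 1 neutrophil genes summed to 1.17 per 10000. The deposited matrix of control round 1 lists few barcodes beyond its 378 cells, whereas the other libraries list 1194644 to 6794880 barcodes, so its 66 barcodes with 50 to 249 genes (exact 95% upper bound 5.44%) give no like comparison.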

How the results depend on the processing

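The difference in the share of macrophage cells between injured and control discs, 3.01 points, ranged from 2.28 to 4.02 over 8 alternatives and from 2.86 to 3.17 when each library was left out in turn, and it was positive in each. Against other injured cells, 1029 genes were called higher and 1390 lower. Without the replicate block on the library these were 668 and 759, and DESeq2 with the block called 850 lower, while the remaining alternatives stayed within 1.5 times. Of 1731 values of 147 genes, 60 lost their call, 25 of them without the block and 21 with DESeq2, and 7 changed sign: Cd9 (-0.10 with no filter on low counts), Cxcl2 (0.0036 when 6 rule genes were required, 0.17 without shared barcodes, -0.73 to 0.89 with 1 library left out), and, each with 1 library left out, Cxcl10 (-1.60 to 2.81), Cd63 (-0.63 to 0.070) and Ccl2 (-0.28 to 2.26).

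Injured against control over all cells gave 0 higher and 14 lower calls. The replicate block on the round gave 327 and 409, which included all 14, no filter on low counts 94 and 165, DESeq2 42 and 139, and the block without shared barcodes 397 and 387, which included 7 of the 14. Without shared barcodes and no block 2 genes were called lower, and with a minimum of 500 detected genes 0 were called lower by edgeR (902 of either direction at an unadjusted p under 0.05). Leaving out 1 library gave 37 to 80 higher and 89 to 207 lower calls, where the lone library of a group is assumed to vary like the other group. The cause was not tested. With 8 control macrophage cells of mostly under 1000 UMIs, depth limits any statement on gene levels in control macrophages, and a gene at 0 in the injured cells may still reach 0.107 to 0.175 per 10000.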
